A study of Mus musculus with 105 samples.

Results

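The major urinary protein (Mup) genes listed here are Mup1, Mup3, Mup7, Mup9, Mup11, Mup12, Mup17 and Mup20, taken as the rows of the deposited expression matrix that carry these symbols. All 8 were present among 12966 genes, and each was described in every genotype and stage, with each knockout set against the wild type (WT) of its own sequencing group. The series profiled mouse liver by bulk RNA sequencing after diethylnitrosamine (DEN), a chemical carcinogen that damages liver DNA, and its title places the gene losses in hepatocytes. Sequencing group 1 held livers labelled Shp2 KO (SKO), Ikk KO (IKO) and WT, with 4 libraries per group. Sequencing group 2 held beta catenin KO (BKO), cMet KO (MKO) and WT livers, with 3 libraries per group. Every group, WT included, had received DEN and was sampled at 1, 3, 5 and 8 months, with non-tumour and tumour tissue taken separately at 8 months, which gives 30 groups and 105 libraries. The labels do not give the sex of the animals, the Cre driver or the dose of DEN, and they number biological replicates without saying that each is a separate animal, so the p-values measure the spread between these libraries.

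Major urinary proteins are small lipocalins that mouse hepatocytes secrete into the blood and that the kidney passes into the urine, where they bind volatile pheromones and release them slowly. In mouse liver most of them are made at far higher levels in males than in females, and their transcription depends on the pulsed growth hormone of males acting through its receptor, the kinase JAK2 and the transcription factor STAT5B. Mup20 encodes darcin, the male pheromone protein that makes a male's scent attractive to females. SHP2, encoded by Ptpn11, is a tyrosine phosphatase that relays signals from growth factor receptors; IKK kinases activate NF-κB; β-catenin is the coactivator of Wnt signalling; and Met is the receptor of hepatocyte growth factor.

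The 8 genes lie on the minus strand of mouse chromosome 4 (GRCm38.p6), inside the Mup cluster. Mup7 lies at chr4:60066469-60070475, Mup9 at chr4:60418046-60422085, Mup1 at chr4:60498012-60501960 and Mup11 at chr4:60658466-60662432. Further along the chromosome come Mup12 at chr4:60737381-60741416, Mup17 at chr4:61591929-61595865, Mup20 at chr4:62011337-62054143 and Mup3 at chr4:62083476-62087317. The genes are recent duplicates, which bears on how reads at their 3′ ends can be assigned. Of the 50-base windows in the last 300 bases of the annotated transcripts, 92.8% to 93.6% were unique to the gene for Mup3, 91.2% for Mup20 and 56.6% for Mup17. The share was 17.9% for Mup12, 0% to 38.6% for Mup11, 0% to 25.5% for Mup9, 0% to 6.77% for Mup7 and 0% to 100% over the 4 transcripts of Mup1. Values of Mup3 and Mup20 are therefore the best separated, while those of Mup1, Mup7, Mup9, Mup11 and Mup12 are uncertain to the extent that reads were shared out or dropped among near-identical copies.

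The start-site sequences show how close some of these copies are, and that Mup3 is less like them. They do not bear on how reads at the 3′ ends are assigned. RefSeq promoter windows (GRCm38.p6, 250 bases before to 50 bases after the annotated start) were at hand for 5 of the 8 genes: Mup3, Mup7, Mup9, Mup11 and Mup17. Over their aligned stretches the windows of Mup7, Mup9, Mup11 and Mup17 were 97.4% to 98.9% identical to each other and 76.8% to 85.0% identical to that of Mup3. Those of Mup3, Mup11 and Mup17 are printed 5′ to 3′ on the minus strand, at chr4:62087268-62087567 for Mup3, chr4:60662346-60662645 for Mup11 and chr4:61595783-61596082 for Mup17, with capitals marking ATCAAT, the core of the binding site of the liver factor HNF6, and TATATAAG, a TATA box.
Mup3: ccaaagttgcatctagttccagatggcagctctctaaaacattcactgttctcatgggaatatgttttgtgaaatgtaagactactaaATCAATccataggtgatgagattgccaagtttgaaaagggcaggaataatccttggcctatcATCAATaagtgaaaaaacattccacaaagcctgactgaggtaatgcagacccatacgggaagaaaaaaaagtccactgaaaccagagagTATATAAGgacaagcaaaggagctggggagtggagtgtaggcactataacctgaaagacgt
Mup11: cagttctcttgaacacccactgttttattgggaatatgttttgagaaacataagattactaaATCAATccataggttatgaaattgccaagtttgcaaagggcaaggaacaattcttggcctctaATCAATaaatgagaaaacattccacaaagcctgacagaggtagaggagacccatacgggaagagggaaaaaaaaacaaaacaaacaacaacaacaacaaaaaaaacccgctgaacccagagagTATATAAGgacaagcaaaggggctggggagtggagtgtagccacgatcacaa
Mup17: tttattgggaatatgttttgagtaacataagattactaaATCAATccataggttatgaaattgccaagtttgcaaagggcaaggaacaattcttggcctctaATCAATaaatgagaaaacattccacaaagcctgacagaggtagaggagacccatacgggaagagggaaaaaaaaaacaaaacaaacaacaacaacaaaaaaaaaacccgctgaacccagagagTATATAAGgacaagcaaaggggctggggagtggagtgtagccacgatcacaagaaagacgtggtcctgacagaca
ATCAAT, searched on both strands, occurred in 5 of 5 of these windows, each with 2 matches, against 7.54% of 32851 promoter windows of the same length. TATATAAG, a motif chosen after the letters had been seen, occurred in 4 of 5, against 1.01% of all windows. The window of Mup7 ends before the stretch that holds it in the others, so its absence there follows from the annotated start. Matches in near-identical duplicates are not independent of each other. TTCNNNGAA, the palindrome that STAT5 binds, occurred in 0 of 5, against 8.30% of all windows, which says only that these letters are not within this window. The 2 motifs in capitals do not overlap each other in these windows, and a match is a description of the sequence, not a site shown to be used.

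Libraries held 4676444 to 10863046 reads in sequencing group 1 and 6650086 to 20231121 in sequencing group 2. Levels are given as normalised reads, that is reads divided by the library's size factor, and differences on the deposited log2 scale, on which 0 reads stand at 3.83; that scale compresses differences between low values. Reads of the Y-linked genes Ddx3y, Kdm5d, Eif2s3y and Uty were present in all 105 libraries. The targeted genes were checked over all 5 stages and tissues. Ptpn11 ranged over 107 to 375 normalised reads (median 157) in SKO, against 292 to 433 (median 366) in WT, and 19 of 20 SKO libraries lay below every WT library. The exception was SKO replicate 2 at 3 months with 375, while the other 3 libraries of that group held 159, 107 and 112. Ikbkb, which encodes IKKβ, ranged over 185 to 383 (median 269) in IKO, against 275 to 478 (median 338) in WT. Met ranged over 118 to 259 (median 177) in MKO, against 173 to 273 (median 239) in WT. Ctnnb1, which encodes β-catenin, ranged over 101 to 182 (median 124) in BKO, against 92.4 to 231 (median 128) in WT, so it was not lower in BKO. The reads sit at transcript 3′ ends and the deleted exons are not given in the sources used here, so Ctnnb1 does not check the BKO label.

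The 8 genes together took 0.0203% to 2.48% of the reads of a library. In non-tumour liver the share was lowest in SKO, where it averaged 0.253% ± 0.123 at 1 month, 0.452% ± 0.348 at 3 months, 0.381% ± 0.0733 at 5 months and 0.341% ± 0.299 at 8 months (SD, n = 4 each). WT of the same sequencing group averaged 1.51% ± 0.296, 1.45% ± 0.481, 1.19% ± 0.196 and 1.61% ± 0.216 at the same ages (SD, n = 4 each). The highest group means were those of MKO at 3 months, 2.27% ± 0.185, and at 5 months, 2.03% ± 0.237, against 1.84% ± 0.158 and 1.57% ± 0.212 in WT (SD, n = 3 each). Over the 4 non-tumour stages the summed normalised reads of the 8 genes in the knockout were 0.232 of those in WT for SKO, 0.572 for BKO, 0.867 for MKO and 0.993 for IKO. Mup3 alone supplied 28.7% to 97.5% of these reads per library (median 82.3%), so the sums mostly follow Mup3.

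**Figure D1:**
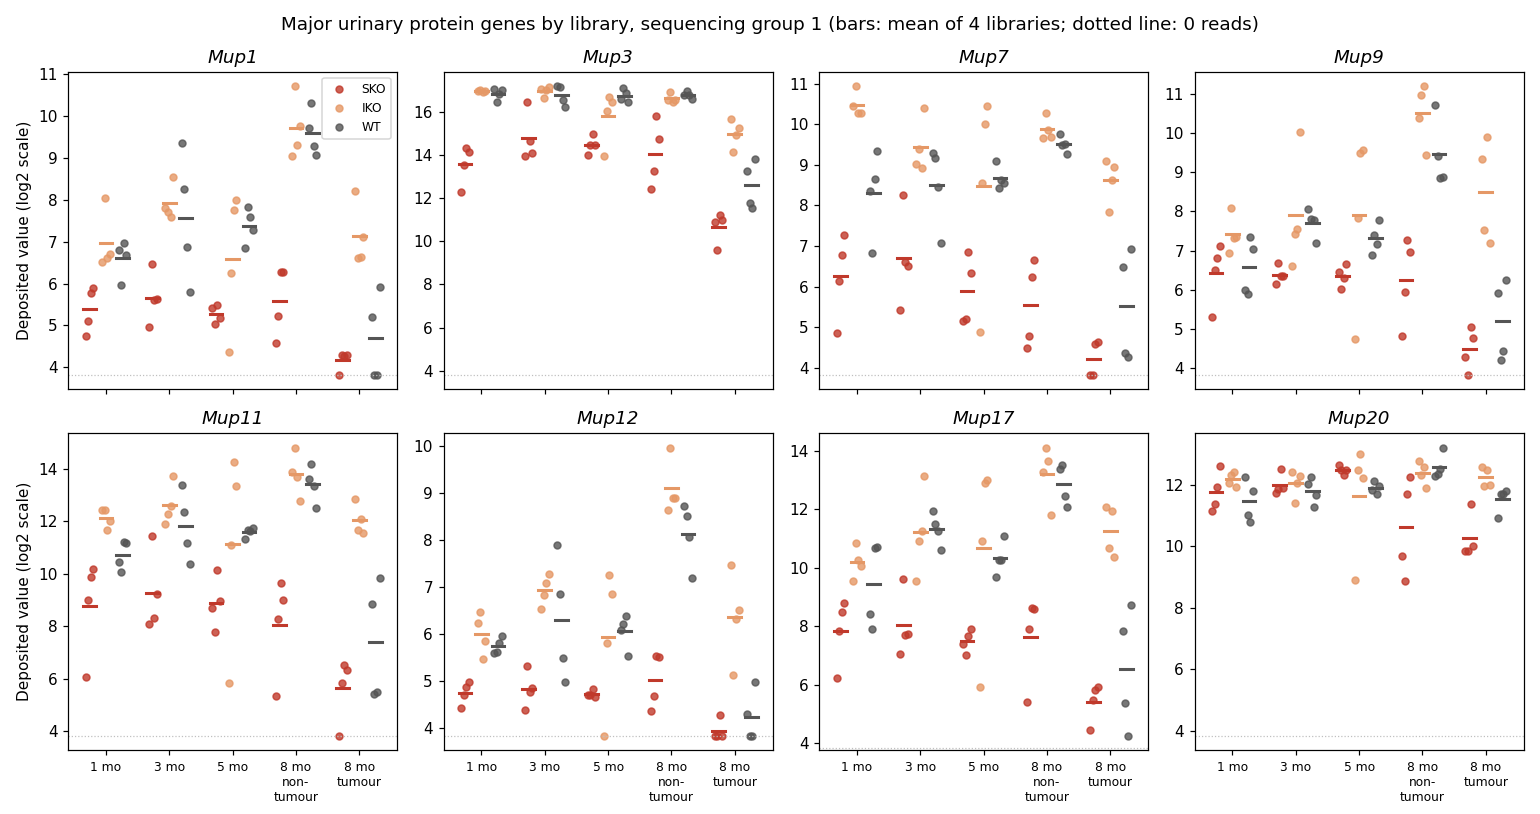
Deposited value (log2 scale) of each gene in every library of sequencing group 1, by stage, with SKO in red, IKO in orange and WT in grey; bars are means of 4 libraries and the dotted line marks 0 reads. For Mup3 all SKO libraries except replicate 2 at 3 months lie below the WT libraries of their stage, whereas for Mup20 only the SKO libraries at 8 months lie apart from WT in non-tumour liver on the low side.

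**Figure D2:**
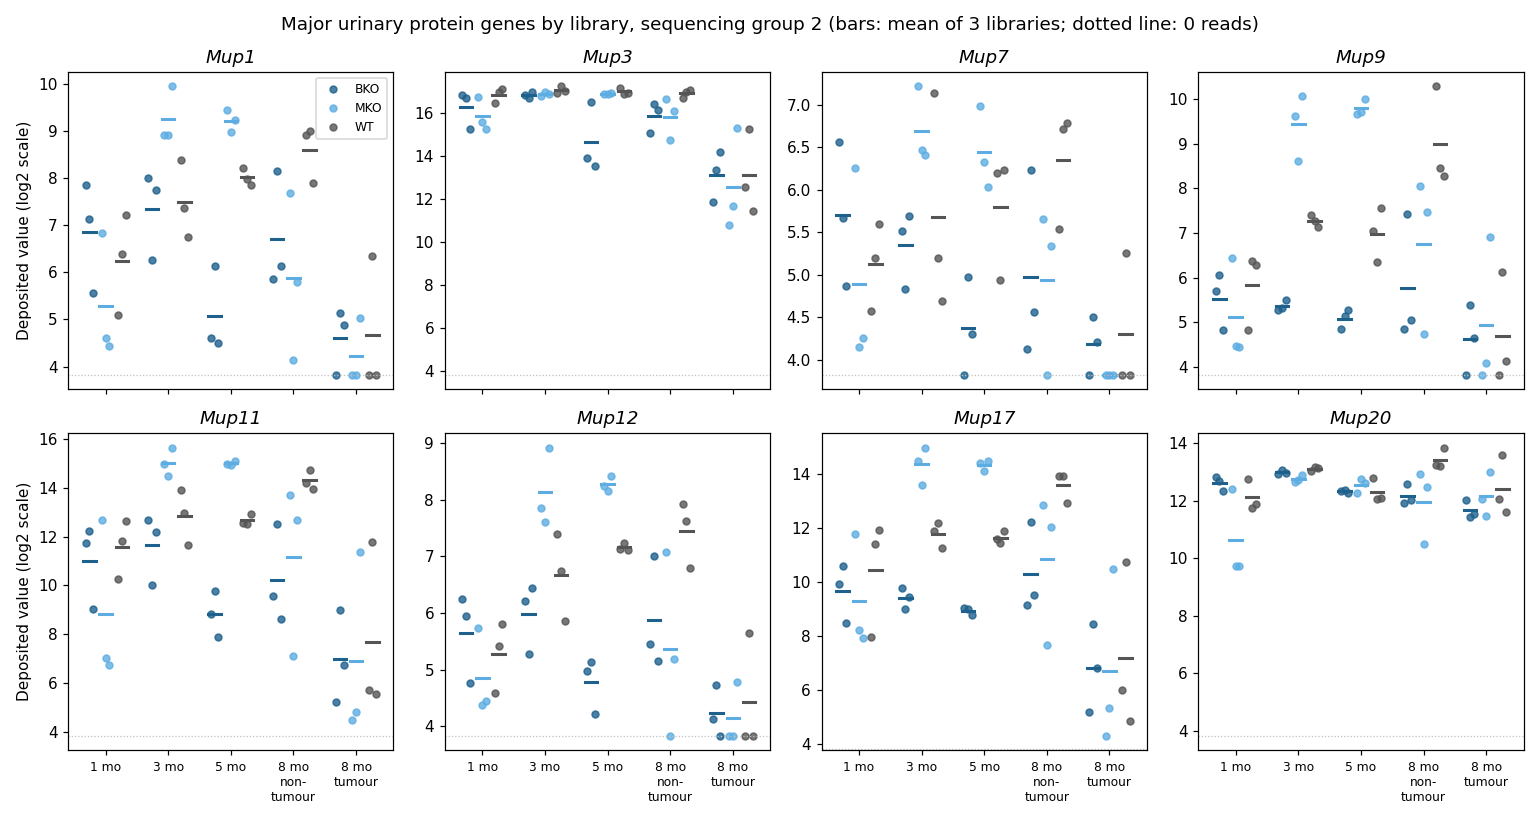
Deposited value (log2 scale) of each gene in every library of sequencing group 2, by stage, with BKO, MKO and WT side by side; bars are means of 3 libraries and the dotted line marks 0 reads. MKO libraries at 3 and 5 months stand above WT for Mup9, Mup11 and Mup17, and both knockouts stand below WT for these genes at 8 months in non-tumour liver.

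Ordered by the mean deposited value of the 8 genes, non-tumour IKO (11.90) and WT (11.54) livers at 8 months headed sequencing group 1. WT tumours (7.21) and SKO tumours (6.10) closed it, directly below the 4 non-tumour SKO groups (8.46 to 7.84). Every group overlapped the next one in that order. In sequencing group 2, MKO at 3 and 5 months (both 11.57) came first and WT at 8 months (11.21) next. The libraries of MKO at 5 months lay above those of WT at 8 months, which those of MKO at 3 months overlapped. WT at 3 and 5 months (10.24 and 10.20) followed, and WT at 8 months overlapped neither. The other groups went from BKO at 3 months (9.36), which did not overlap WT at 5 months, down to MKO tumours (6.94), and each overlapped the next.

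Loss of SHP2 came with lower levels of 7 of the 8 genes as a mean of the 4 non-tumour stages. The genes called lower in SKO, as a mean of the 4 non-tumour stages, were Mup1, Mup3, Mup7, Mup9, Mup11, Mup12 and Mup17, at an adjusted p below 0.05 in limma with Benjamini-Hochberg adjustment over all 12966 genes. That background held 10.9% of genes called lower in SKO, and the median difference was −2.44 over the 8 genes, against 0.01 over all genes. The exception was Mup20, the darcin gene, at −0.22 ± 0.25 (SE; adjusted p = 0.566). Fewer cells that make these transcripts and less transcript per cell cannot be told apart in bulk tissue.

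Mup3, whose 3′ end is well separated from its relatives, was lower in SKO from the first stage on. At 1 month it had 4931, 11878, 20109 and 17635 normalised reads in SKO livers, against 136051, 89922, 115477 and 131079 in WT livers. At 3 months it had 15739, 88684, 25748 and 17579 in SKO livers, against 147328, 144147, 94919.9 and 75062 in WT livers. The groups did not overlap at 1 month; at 3 months SKO replicate 2, the library in which Ptpn11 was not low, lay inside the WT range. At 5 months Mup3 had 16169, 22677, 31838 and 22717 in SKO livers, against 97508, 139341, 118760.0 and 88760.3 in WT livers. In non-tumour liver at 8 months it had 5369, 9577, 57118 and 27047 in SKO livers, against 110029, 126280.0, 110828 and 98626 in WT livers. The groups were apart at both of these ages, with SKO replicate 3 at 8 months the closest to WT. The log2 difference was −3.28 ± 0.51 at 1 month (adjusted p = 6.3e-06), −1.97 ± 0.51 at 3 months (adjusted p = 0.0147), −2.27 ± 0.51 at 5 months (adjusted p = 0.00354) and −2.72 ± 0.51 at 8 months (SE; adjusted p = 0.0005).

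Mup17 and Mup11 were furthest below WT on the deposited log2 scale in SKO at 8 months. Mup17 then had 18.8, 214, 369.9 and 357 normalised reads in SKO livers, against 10645, 11496, 5601 and 4330.4 in WT livers. Mup11 had 16.8, 283, 768 and 486 in SKO livers, against 12433, 18733, 10263 and 5766 in WT livers. For both genes the highest SKO library lay far below the lowest WT library. The WT mean was 33.4 times the SKO mean for Mup17 and 30.4 times for Mup11, and the log2 differences were −5.22 ± 0.90 (adjusted p = 0.000146) and −5.34 ± 1.01 (SE; adjusted p = 0.000586). At 1 month the same genes were closer: Mup17 had 49.9, 202, 327 and 421 in SKO livers, against 315, 212, 1600.5 and 1648 in WT livers. The groups overlapped there, and the difference of −1.59 ± 0.90 (SE) did not pass (adjusted p = 0.242).

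The remaining genes of the lowered set followed at 8 months with lower counts. Mup1 had 3.96, 14.5, 51.7 and 51.2 normalised reads in SKO livers, against 810.3, 1251, 596 and 513 in WT livers, a difference of −4.01 ± 0.54 (SE; adjusted p = 1.98e-06). Mup7 had 2.97, 6.23, 49.5 and 74.2 in SKO livers, against 840.1, 691, 707 and 585 in WT livers, a difference of −3.97 ± 0.68 (SE; adjusted p = 0.000139). For both genes each SKO library lay below every WT library, with replicates 1 and 2 the lowest. With limma-voom on the recovered reads, Mup7 (−5.22) and Mup1 (−5.12) lay close to Mup11 (−5.71) and Mup17 (−5.58) at this age. Mup9 differed by −3.22 ± 0.65 (adjusted p = 0.00144) and Mup12 by −3.10 ± 0.46 (SE; adjusted p = 1.09e-05), and in both the groups did not overlap.

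Mup20 behaved differently before 8 months. At 5 months it had 6416, 5655, 5139 and 5751 normalised reads in SKO livers, against 3645, 4444, 3309 and 3962 in WT livers. Every SKO library was above every WT library, but the difference of 0.58 ± 0.50 (SE) did not pass the test (adjusted p = 0.559). With only the SKO and WT libraries of 5 months in the limma fit, Mup20 was called higher (adjusted p = 0.0179). With the replicate number as a block as well it was not (adjusted p = 0.056). At 8 months Mup20 had 786, 438, 3268 and 4871 in SKO livers, against 4945, 5150.2, 5860.5 and 9456 in WT livers. Here every SKO library was below every WT library, SKO replicate 4 only just, and the difference was −1.97 ± 0.50 (SE; adjusted p = 0.0133). The knockout effect on Mup20 differed between stages (F = 5.50, adjusted p = 0.0444 by limma's interaction term, 1 of 8 genes), among 5.68% of all genes that did so. At an unadjusted p under 0.05, 5 of the 8 genes and 23.8% of all genes passed that test.

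Counted by stage, the genes called lower in SKO were 2 at 1 month (Mup3 and Mup7) against a background of 7.34% of genes called lower. At 3 months they were 4 (Mup1, Mup3, Mup12 and Mup17; background 2.2%), at 5 months 4 (Mup1, Mup3, Mup7 and Mup17; background 3.41%) and at 8 months all 8 (background 2.49%). Groups did not overlap, in either direction, for 3 of the 8 genes at 1 month (21.1% of all genes), 2 at 3 months (8.87%), 8 at 5 months (13.4%) and 8 at 8 months (11.2%). The median difference over the 8 genes was −1.40 at 1 month, −1.86 at 3 months, −2.18 at 5 months and −3.60 at 8 months, while the difference of Mup3 was largest at 1 month. Over the 16 non-tumour SKO libraries, 15 lay below the lowest WT library of their stage for Mup1, Mup3 and Mup12, 14 for Mup7, Mup11 and Mup17, 13 for Mup9 and 4 for Mup20. The 3-month count rested on single libraries: it was 6 without SKO replicate 2, 1 without WT replicate 1 or SKO replicate 3, and 0 without WT replicate 2, SKO replicate 1 or SKO replicate 4. At 1 month the count was 1 without WT replicate 1, 3 or 4 or SKO replicate 1 or 2. The count of 1 gene whose knockout effect differed between stages moved in 23 of 32 fits that each left out 1 library, to between 0 and 3.

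The split between Mup20 and the rest was tested on the difference within each library, a test chosen after the values had been seen. Mup20 had been picked out in these same libraries, so the p-values are not separate support for the split. The level of Mup17 minus that of Mup20 differed by −3.01 on the log2 scale between SKO and WT over the 4 non-tumour stages, where the means were −3.97 in SKO and −0.96 in WT (n = 16 each). The corresponding differences were −2.91 for Mup11, −2.43 for Mup7, −2.34 for Mup3, −2.09 for Mup1, −1.50 for Mup12 and −1.19 for Mup9. Two-sided permutation tests within stages (100000 permutations, 7 tests) gave p = 1e-05, the smallest they can give, for Mup1, Mup3, Mup7, Mup11 and Mup17, p = 3e-05 for Mup12 and p = 0.00018 for Mup9.

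**Figure D3:**
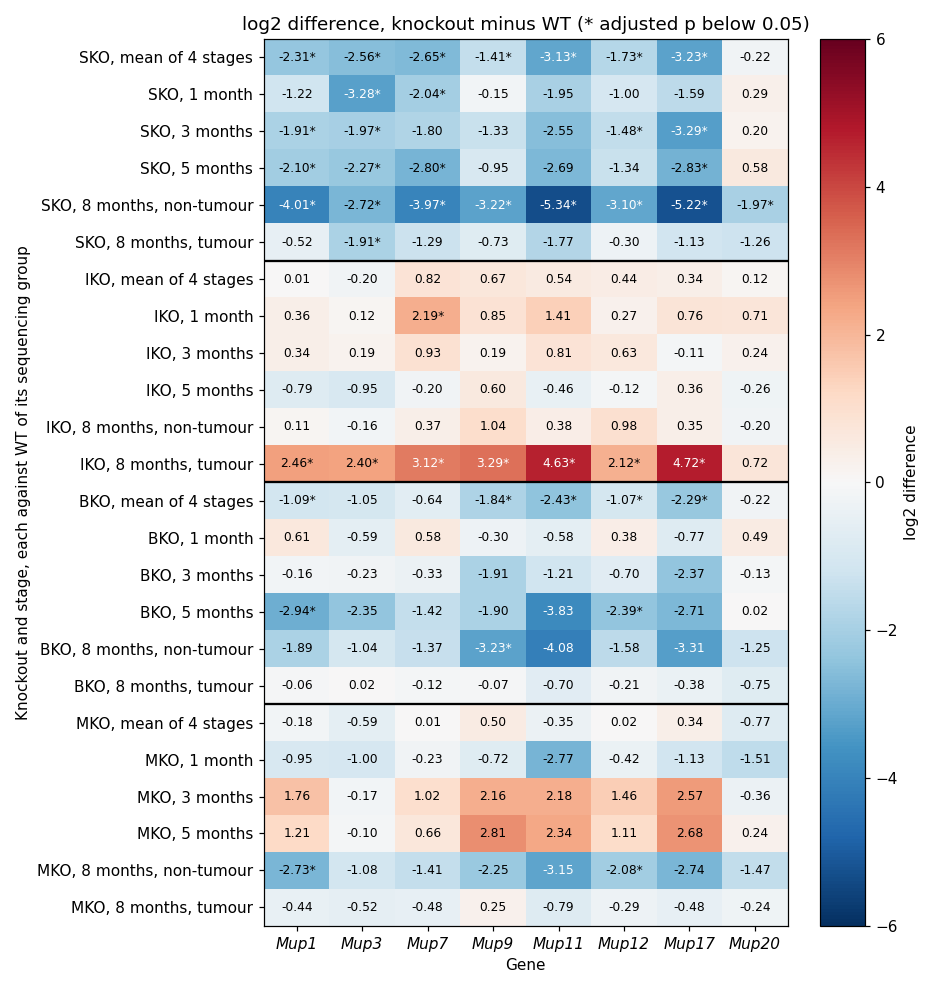
log2 difference of each gene (columns), knockout minus WT of the same sequencing group, for the mean of the 4 non-tumour stages and for each stage (rows); asterisks mark adjusted p below 0.05 in limma over all genes. SKO rows are blue for all genes but Mup20 before 8 months. The IKO tumour row is positive for all 8 genes, with asterisks on 7. MKO rows change sign between 5 months and non-tumour liver at 8 months for all genes but Mup3, which is negative at both.

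The lowering in SKO reached other Mup rows but not the flanks of the cluster. Of the other 13 Mup rows of the matrix, 10 genes and 3 named as pseudogenes, 12 were called lower in SKO over the 4 stages, and Mup5 was not, at −0.26 (adjusted p = 0.126). Among 35 measured genes within 2 Mb of the cluster, 2 were called lower, 2 higher and 31 neither, with a median difference of 0.04. The called neighbours were Col27a1 (−0.67), Atp6v1g1 (−0.34), Hsdl2 (0.59) and Orm2 (0.83).

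The genes of growth hormone signalling moved both ways in SKO. Of 13 measured members, 2 were lower and 3 higher (median 0.02, against 0.01 over all genes). Of all 12966 genes, 10.9% were called lower in SKO and 2965 were called in either direction. The 2 lower genes included Ptpn11, the gene targeted in SKO (−1.12, adjusted p = 6.18e-16 in limma), so that call is not a response of the pathway. Ghr, the growth hormone receptor, fell by 0.46 on the log2 scale (adjusted p = 7.84e-05), and Ptpn1, which encodes the phosphatase PTP1B, rose by 0.27 (adjusted p = 0.00174). Socs2, a feedback inhibitor of the receptor, rose by 0.83 (adjusted p = 0.00926), whereas Jak2 (0.11, adjusted p = 0.293) and Stat5b (0.12, adjusted p = 0.357) did not pass. Socs2, Jak2 and Stat5b were named after their values were seen, as were the cluster's called neighbours.

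Male-biased liver genes outside the family were lower in SKO for 9 of 23 and higher for 3 (median −0.38). Of all 12966 genes, 10.9% were called lower in SKO and 2965 were called in either direction. Hsd3b5, a male-specific steroid-metabolising enzyme, differed by −2.93 ± 0.41 (adjusted p = 1.85e-07) and Susd4, a complement regulator, by −1.16 ± 0.20 (adjusted p = 1.87e-05). Aldh3a2, a fatty aldehyde dehydrogenase, went the other way at 1.02 ± 0.13 (SE; adjusted p = 5.77e-08). Female-biased genes were higher for 5 of 15 and lower for 3 (median 0.44). They included Cyp2c69 (2.32, adjusted p = 3.23e-06), the transporter gene Slc22a26 (1.47, adjusted p = 4.67e-06) and Acot3, an acyl-CoA thioesterase (1.04, adjusted p = 0.00646). Against 10.9% of all genes called lower, regulators of sex-biased genes were lower for 3 of 21 and higher for 1 (median −0.12). These were led by Nfib, an NFI-family factor (−0.33), Trim24, a nuclear receptor cofactor (0.36), and Nr3c1, the glucocorticoid receptor (−0.20).

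Other secreted products of hepatocytes also moved. Of 26 abundant secreted proteins, 11 were lower in SKO and 1 higher (median −0.26), against 10.9% of all genes called lower. Among them were Apoc3 at −0.65, Alb, the albumin gene, at −1.09 and Serpina1c, an α1-antitrypsin, at −0.74. Of 9 lipocalins outside the family, 1 was lower (C8g, a complement C8 chain, −0.26) and 3 higher, among them Ptgds, a prostaglandin D synthase (1.67), and Orm2, an orosomucoid (0.83). None of 4 sex-chromosome transcripts was called. Of 5 hepatocyte markers 4 were lower in SKO, with a mean sum of 368722 normalised reads over the 4 stages, against 706051 in WT. Pooled over stages the sums ranged over 229738 to 806263 in SKO libraries, against 258253 to 911898 in WT libraries. The highest SKO sum was that of replicate 2 at 3 months, the library in which Ptpn11 was not low. At 1 month the sums did not overlap, at 229738 to 298817 in SKO and 637709 to 833280 in WT. All 7 macrophage markers were higher, with sums of 522 to 2311 (mean 1603) in SKO and 502 to 2146 (mean 931) in WT. No marker of either list was at 0 in any whole group. Stellate cell markers were higher for 2 of 5 and cholangiocyte markers for 0 of 5. The part of these markers in the result was not tested.

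Loss of IKK left the family near WT in non-tumour liver. As a mean of the 4 stages 0 of the 8 genes were called in IKO, against 9.04% of all genes. At an unadjusted p under 0.05, 2 passed, Mup7 (0.82 ± 0.34) and Mup9 (0.67 ± 0.33, SE), as did 22.9% of all genes. The median difference was 0.39. Mup7 was the exception at 1 month, with 1360.5, 1932, 1215 and 1212 normalised reads in IKO livers, against 297, 87.2, 376 and 626 in WT livers. Every IKO library exceeded every WT library, at a difference of 2.19 ± 0.68 (SE; adjusted p = 0.0322). Mup7 was the 1 gene called higher at 1 month (background 4.42%), and the count was 0 without WT replicate 1 or 2 or any of the 4 IKO replicates. Mup11 also did not overlap there, with 5453, 5488, 3207 and 4142 in IKO livers, against 1373, 1042, 2351 and 2282 in WT livers, but did not pass (1.41 ± 1.01, SE; adjusted p = 0.427). These were 2 genes without overlap, as were 17.3% of all genes in either direction. No gene was called in IKO at 3 months (background 0.201%), at 5 months (1.45%) or in non-tumour liver at 8 months (0.201%), and at an unadjusted p under 0.05 the counts were 0, 0 and 1 (7.18%, 15.5% and 6.27% of all genes, in the same order). The IKO effect was called as differing between stages for 0 genes (background 0.0694%), and 0 passed at an unadjusted p under 0.05 (13.4% of all genes).

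At 5 months 1 IKO library stood far below the others. IKO replicate 1 had 15972 normalised reads of Mup3, while the other 3 had 67371, 104931 and 90193, against 97508, 139341, 118760.0 and 88760.3 in WT livers. For Mup17 it had 36.1, while the others had 1885, 7648 and 8235, against 790.4, 1213, 1201 and 2156 in WT livers. The low library was low for all 8 genes and also for Hsd3b5, at 12.7 normalised reads against 408, 3137 and 1650.5 in the other IKO libraries. Its hepatocyte markers summed to 969935, inside the 705078 to 1054180 of the group. Without this library 3 of the 8 genes, Mup7, Mup9 and Mup12, were called higher in IKO over the 4 stages, as were 4.05% of all genes.

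SKO and IKO livers, sequenced together, were also compared directly. As a mean of the 4 non-tumour stages 7 of the 8 genes were called lower in SKO than in IKO, against 10.6% of all genes. The differences were −3.67 ± 0.51 for Mup11, −3.57 ± 0.45 for Mup17, −3.47 ± 0.34 for Mup7, −2.36 ± 0.25 for Mup3, −2.32 ± 0.27 for Mup1, −2.17 ± 0.23 for Mup12 and −2.08 ± 0.33 for Mup9 (SE; adjusted p at most 2.09e-06). Mup20 differed by −0.35 ± 0.25 (SE) and did not pass (adjusted p = 0.343).

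Livers labelled beta catenin KO had lower levels of 5 of the 8 genes, and a difference of the effect between stages was called for 0 of the 8. As a mean of the 4 non-tumour stages the genes called lower in BKO were Mup9 (−1.84 ± 0.38, adjusted p = 0.000573), Mup12 (−1.07 ± 0.29, adjusted p = 0.00803), Mup17 (−2.29 ± 0.65, adjusted p = 0.0114), Mup11 (−2.43 ± 0.80, adjusted p = 0.0292) and Mup1 (−1.09 ± 0.38, SE; adjusted p = 0.0385). The background was 9.04% of genes called lower in BKO, and the median difference was −1.08 over the 8 genes. Mup3 (−1.05 ± 0.40, adjusted p = 0.0589), Mup7 (−0.64 ± 0.29, adjusted p = 0.125) and Mup20 (−0.22 ± 0.25, SE; adjusted p = 0.592) did not pass. The count was 1 without the 5-month or the 8-month stage. It was 3 without any 1 of WT replicate 3 or BKO replicate 3 at 1 month, WT replicate 1 or BKO replicate 2 at 3 months, BKO replicate 3 at 5 months or BKO replicate 3 at 8 months.

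By stage, no gene was called in BKO at 1 month (background 4.37%; 0 at an unadjusted p under 0.05, against 18.3% of all genes) or at 3 months (background 1.54%; 1 at an unadjusted p under 0.05, against 12.6%). At 3 months Mup9 had 15.4, 16.6 and 21.6 normalised reads in BKO livers, against 143, 127 and 114 in WT livers. Mup17 had 852, 479 and 658 in BKO livers, against 3752, 4554 and 2430.2 in WT livers. Those were the 2 genes whose groups did not overlap at 3 months (21.1% of all genes), with differences of −1.91 ± 0.75 (adjusted p = 0.244) and −2.37 ± 1.31 (SE; adjusted p = 0.47).

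At 5 months Mup1 had 4.14, 44.9 and 3.20 normalised reads in BKO livers, against 269, 226 and 205 in WT livers. Mup12 had 9.32, 12.6 and 1.07 in BKO livers, against 113, 125 and 112 in WT livers. These were the 2 genes called lower (background 2.93%), at −2.94 ± 0.76 (adjusted p = 0.0163) and −2.39 ± 0.58 (SE; adjusted p = 0.0112), and the groups did not overlap for 6 of the 8 genes (27.1% of all genes). BKO replicates 1 and 3 were the low libraries: Mup3 had 15362, 92731 and 11879.6 in BKO livers, against 145904, 122050.0 and 126193 in WT livers. The same libraries had 19.7 and 11.7 normalised reads of Hsd3b5, against 434 in replicate 2. The count was 1 without WT replicate 1 or BKO replicate 1 and 0 without BKO replicate 3.

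In non-tumour liver at 8 months Mup9 had 7.48, 145 and 10.7 normalised reads in BKO livers, against 1223, 323 and 280.5 in WT livers. It was the 1 gene called lower (background 1.76%), at −3.23 ± 0.75 (SE; adjusted p = 0.00999), and the groups did not overlap for 5 of the 8 genes (23.6% of all genes). Mup11 had 723, 5833 and 364 in BKO livers, against 18932, 27476 and 15912 in WT livers, but its difference of −4.08 ± 1.60 (SE) did not pass (adjusted p = 0.13). Mup20 had 3838, 6177 and 4208 in BKO livers, against 9611, 9581 and 14809 in WT livers, at −1.25 ± 0.51 (SE; adjusted p = 0.141). BKO replicate 2 was the highest of its group for each of these genes. The count was 0 without WT replicate 1 or BKO replicate 1 and 2 without BKO replicate 2. The BKO effect was called as differing between stages for 0 of the 8 genes (background 0.663%), and 2 passed at an unadjusted p under 0.05 (15.2% of all genes).

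Outside the family, BKO livers had 5 of 23 male-biased genes lower and 3 higher, and of 26 abundant secreted proteins 1 lower and 8 higher. Of all 12966 genes, 9.04% were called lower in BKO and 2540 were called in either direction. Of the other 13 Mup rows 8 were called lower in BKO. Cholangiocyte markers were higher for 5 of 5, with sums of 229 to 834 normalised reads in BKO libraries, against 113 to 191 in WT libraries. Stellate cell markers were higher for 4 of 5, macrophage markers for 3 of 7 and hepatocyte markers for 2 of 5, with hepatocyte sums of 649159 to 1221730 in BKO, against 431697 to 978016 in WT. Their part in the result was not tested.

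In livers labelled cMet KO, 1 gene, Mup9, was called as differing from WT by an amount that changed between stages. With limma-voom on the recovered reads 0 genes were called in that test. As a mean of the 4 non-tumour stages 0 genes were called in MKO (background 2.71%), with Mup20 nearest at −0.77 ± 0.25 (SE; adjusted p = 0.0863) and the 1 gene at an unadjusted p under 0.05 (17.5% of all genes). At 3 and 5 months several members stood above WT in every library. At 5 months Mup17 had 21156, 17388 and 22648 normalised reads in MKO livers, against 3003, 2762 and 3767 in WT livers. Mup9 had 788, 809.9 and 1001 in MKO livers, against 105, 55.8 and 163 in WT livers. Mup11 had 32045, 31260.0 and 35338 in MKO livers, against 6046, 5796 and 7716 in WT livers. Groups did not overlap for 5 of the 8 genes, with Mup1 and Mup12 the others, and for 17.5% of all genes. The MKO mean was 6.42 times the WT mean for Mup17, 8.03 times for Mup9 and 5.04 times for Mup11.

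None of these differences passed with the spread estimated over all 15 groups of the sequencing group. At 5 months 0 genes were called (background 0.0463%; 2 at an unadjusted p under 0.05, against 9.36% of all genes), with Mup9 at 2.81 ± 0.75 (adjusted p = 0.146) and Mup17 at 2.68 ± 1.31 (SE; adjusted p = 0.531). With the spread taken from the MKO and WT libraries at 5 months alone 5 genes were called (0.154% of all genes), and 3 with the replicate number as a block as well (0.054%). At 3 months 0 were called (background 0.0231%; 3 at an unadjusted p under 0.05, against 7.57% of all genes), with Mup9 at 2.16 ± 0.75 (adjusted p = 0.444). Mup17 had 22827, 12128 and 31809 in MKO livers at 3 months, against 3752, 4554 and 2430.2 in WT livers. Every MKO library was above every WT library for Mup1, Mup9, Mup11, Mup12 and Mup17 at that age. Mup20 lay the other way, with 6442, 6836 and 7547 in MKO livers, against 8458, 9232 and 9038 in WT livers, at −0.36 ± 0.51 (SE; adjusted p = 0.93). These 6 genes were without overlap at 3 months, as were 16.1% of all genes. Mup3 was close to WT, with 119192, 122281 and 125620.0 in MKO livers at 5 months, against 145904, 122050.0 and 126193 in WT livers.

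At 1 and 8 months the MKO libraries were spread widely. At 1 month Mup11 had 6457, 103 and 81.4 normalised reads in MKO livers, against 1208, 3615 and 6405 in WT livers. Replicate 1 was just above the highest WT library, and replicates 2 and 3 were below all of them. The same replicates had 830.1 and 824 of Mup20 and 134 and 272 of Hsd3b5, while replicate 1 had 5439 and 2648. No gene was called at 1 month (background 0.185%; 1 at an unadjusted p under 0.05, against 8.34% of all genes, and 1 called without MKO replicate 1). In non-tumour liver at 8 months Mup1 had 179, 0.652 and 30.7 in MKO livers, against 456, 488 and 209.7 in WT livers. Mup12 had 108, 0 and 13.7 in MKO livers, against 216, 170.2 and 84.2 in WT livers. Replicate 2 was the lowest library for all 8 genes. It also had the highest macrophage marker sum of the MKO libraries, 6171 normalised reads, the highest cholangiocyte marker sum, 617, and 201 of Hsd3b5. Macrophage markers summed to 3241 to 6171 in MKO livers, against 1281 to 3142 in WT livers, and cholangiocyte markers to 216 to 617 in MKO livers, against 147 to 189 in WT livers, so neither range overlapped. Hepatocyte markers summed to 455849 to 787030 in MKO livers at 8 months, against 431697 to 774404 in WT livers. At the earlier ages their sums were lower in MKO, without overlap. The ranges were 491232 to 542352 against 813691 to 978016 in WT at 1 month. They were 441326 to 461257 against 681951 to 890726 at 3 months, and 469764 to 511927 against 769612 to 824051 at 5 months. No marker of these lists was at 0 in any of these whole groups, and their part in the result was not tested.

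Mup1 (−2.73 ± 0.76, adjusted p = 0.0306) and Mup12 (−2.08 ± 0.58, SE; adjusted p = 0.0309) were the 2 genes called lower in MKO at 8 months (background 2.23%), and the groups did not overlap for 6 of the 8 genes (23.4% of all genes). MKO and WT libraries with the same replicate number deviated together at this stage (correlations of 0.124 to 0.303), and 0 of the 8 genes were called when the replicate number was kept as a block in a fit of these groups (1.5% of all genes). The count was also 0 without MKO replicate 2 or 3 or WT replicate 1 or 2, and 4 without MKO replicate 1. The MKO effect differed between stages for Mup9 (F = 10.05, adjusted p = 0.0257), the 1 gene called against a background of 0.339%. At an unadjusted p under 0.05, 7 of the 8 genes and 13.9% of all genes passed. The count called was 0 without WT replicate 2 or MKO replicate 3 at 5 months or WT replicate 1 or MKO replicate 2 at 8 months. It was 2 without MKO replicate 1 at 1 month or WT replicate 1 at 3 months, and 3 without MKO replicate 1 at 8 months.

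BKO livers were lower than MKO livers for 3 of the 8 genes as a mean of the 4 non-tumour stages, against 7.86% of all genes. The genes were Mup17 (−2.63 ± 0.65, adjusted p = 0.00462), Mup9 (−2.34 ± 0.38, adjusted p = 2.39e-05) and Mup12 (−1.09 ± 0.29, SE; adjusted p = 0.00863). Mup20 was at 0.56 ± 0.25 (SE; adjusted p = 0.139). The count was 5 without BKO replicate 2 or MKO replicate 2 at 8 months.

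With age, Mup levels in WT liver were called higher at 8 months than at 1 month for 4 of the 8 genes in sequencing group 1 and 2 in sequencing group 2. In sequencing group 1 Mup1 had 810.3, 1251, 596 and 513 normalised reads in WT livers at 8 months, against 85.2, 37.2, 98.5 and 76.7 at 1 month. Mup17 had 10645, 11496, 5601 and 4330.4 at 8 months, against 315, 212, 1600.5 and 1648 at 1 month. The ages did not overlap for either gene, nor for Mup9, Mup11, Mup12 and Mup20, that is for 6 of the 8 genes and 13.1% of all genes. Mup1 (2.99 ± 0.54, adjusted p = 0.000335), Mup9 (2.89 ± 0.65, adjusted p = 0.00346), Mup12 (2.38 ± 0.46, adjusted p = 0.000676) and Mup17 (3.43 ± 0.90, SE; adjusted p = 0.0125) were the 4 genes called higher at 8 months, against 3.99% of all genes. Mup3 differed by −0.07 ± 0.51 (SE; adjusted p = 0.959). Over all 4 non-tumour stages the same 4 genes were called as changing, against 27.9% of all genes.

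WT livers of sequencing group 2 gave similar sizes with fewer libraries. Mup9 had 1223, 323 and 280.5 normalised reads at 8 months, against 7.22, 57.5 and 51.8 at 1 month, at 3.17 ± 0.75 (SE; adjusted p = 0.0215). Mup12 was also called, at 2.18 ± 0.58 (SE; adjusted p = 0.0445), which made 2 genes higher against 0.925% of all genes. Mup1 (2.37 ± 0.76, adjusted p = 0.0986) and Mup17 (3.15 ± 1.31, SE; adjusted p = 0.213) did not overlap between the ages and did not pass, with 6 of the 8 genes and 23.5% of all genes without overlap. Mup3 was at 0.06 ± 0.80 (SE; adjusted p = 0.982). Without WT replicate 1 or 2 at 1 month or WT replicate 1 at 8 months the count was 0, and without WT replicate 3 at 1 month or WT replicate 2 or 3 at 8 months it was 1. Over the 4 stages 0 genes were called (background 0.887%) and 4 passed at an unadjusted p under 0.05 (13.8% of all genes).

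The difference between Mup3 and the others with age was tested within libraries over both WT groups, again after the values had been seen. Mup3 had been picked out in these same libraries, so the p-values are not separate support for that difference. Relative to Mup3, the level at 8 months was above that at 1 month by 3.29 for Mup17, 3.04 for Mup9, 2.71 for Mup11, 2.69 for Mup1, 2.29 for Mup12, 1.22 for Mup7 and 1.22 for Mup20 on the log2 scale (n = 7 each). Two-sided exact permutation tests within sequencing groups (7 tests) gave p = 0.00143, the smallest they allow, for 6 genes and p = 0.00286 for Mup20.

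Levels at the different ages were also compared within each knockout. The direct test of whether the knockout effect differed between stages called 1 gene in SKO (Mup20), 1 in MKO (Mup9) and 0 in IKO and BKO. IKO livers had the same 4 genes higher at 8 months than at 1 month as WT (Mup1 2.74, Mup9 3.08, Mup12 3.09 and Mup17 3.02; background 10.1%), and the same 4 changing over the stages (background 31.4%). In SKO livers 0 genes were called between 8 months and 1 month, against 23.9% of all genes, and 1 gene, Mup20 at −1.14 ± 0.50 (SE), had an unadjusted p under 0.05 (35.1% of all genes). Mup17 differed by −0.20 ± 0.90 and Mup1 by 0.20 ± 0.54 (SE) between these ages in SKO. Over the 4 stages Mup20 was the 1 gene called in SKO (F = 5.01, adjusted p = 0.0163; background 34.5%), a count of 0 without SKO replicate 1 or 2 at 8 months. The between-age count in SKO was 1 without SKO replicate 3 or 4 at 8 months. In BKO livers 0 genes were called between the ages (background 8.49%; 0 at an unadjusted p under 0.05, against 23.6% of all genes) and 0 over the stages (background 7.88%; 1 at an unadjusted p under 0.05, against 24.7%). In MKO livers 7 genes, all but Mup3, were called over the 4 stages (background 16.4%), 4 of them without MKO replicate 3 at 1 month. Between 8 months and 1 month 0 were called in MKO (background 13.2%; 2 at an unadjusted p under 0.05, against 27.8% of all genes), 1 without MKO replicate 1 at 1 month and 2 without MKO replicate 2 at 8 months. The high points of MKO lay at 3 and 5 months.

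Tumours of WT livers held far fewer Mup reads than the non-tumour liver of the same age. In sequencing group 1 Mup3 had 9584, 3404, 2987 and 14188 normalised reads in WT tumours, against 110029, 126280.0, 110828 and 98626 in WT non-tumour livers. Mup17 had 201, 18.0, 1.24 and 393 in tumours, against 10645, 11496, 5601 and 4330.4 in non-tumour livers. The tissues were far apart for both genes, and replicates 2 and 3 were the lowest tumours. Mup20 had 1904, 3332, 3285 and 3519.8 in tumours, against 4945, 5150.2, 5860.5 and 9456 in non-tumour livers. The 7 genes other than Mup20 were called lower, against 19.2% of all genes, with differences of −6.31 ± 0.90 for Mup17, −6.00 ± 1.01 for Mup11, −4.91 ± 0.54 for Mup1, −4.26 ± 0.65 for Mup9, −4.18 ± 0.51 for Mup3, −4.00 ± 0.68 for Mup7 and −3.89 ± 0.46 for Mup12 (SE; adjusted p at most 3.19e-06). Mup20 did not overlap between the tissues but did not pass (−1.06 ± 0.50, SE; adjusted p = 0.0833), and 35.6% of all genes were without overlap.

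In sequencing group 2 the same 7 genes were called lower in WT tumours, against 12% of all genes. Mup3 had 6066, 39498 and 2782 normalised reads in tumours, against 106354, 129191 and 135072 in non-tumour livers. Mup17 had 37.9, 1672 and 7.17 in tumours, against 15388, 15444 and 7673 in non-tumour livers. Replicate 2 was the highest tumour for all 8 genes. The differences were −3.81 ± 0.80 for Mup3, −6.40 ± 1.31 for Mup17 and −1.02 ± 0.51 for Mup20 (SE; adjusted p = 0.000437, 0.000328 and 0.135 in that order).

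Relative to Mup20 in the same library, WT tumours differed from WT non-tumour liver over both sequencing groups (n = 7 each) by −5.32 for Mup17, −5.27 for Mup11, −3.38 for Mup1, −3.25 for Mup9, −2.95 for Mup3, −2.41 for Mup12 and −1.98 for Mup7. Two-sided exact permutation tests within sequencing groups, chosen after the values had been seen (7 tests), gave p = 0.00143 for each, the smallest they allow. As Mup20 had been picked out in these same libraries, the p-values are not separate support.

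Tumours of each knockout were also set against its own non-tumour liver. A difference from WT in this tumour effect was called for 0 of the 8 genes in each knockout. In IKO 4 genes were called lower (Mup1, Mup3, Mup9 and Mup12; background 15.1%), and the count was 2 without IKO tumour replicate 2. In SKO 4 were called (Mup1, Mup3, Mup9 and Mup17; background 18.7%), 1 without SKO non-tumour replicate 3 or 4 or tumour replicate 1 and 2 without tumour replicate 2. With only the compared groups in the fit the count was 7 in IKO (29.4% of all genes) and 7 in SKO (35.9%). In BKO 1 was called, Mup3 (−2.75 ± 0.80, SE; adjusted p = 0.017; background 6.32%). BKO libraries of the same number deviated together between the tissues (correlations of 0.226 to 0.329), and with the replicate number as a block in a fit of these groups 5 genes were called, Mup1, Mup3, Mup11, Mup12 and Mup17 (8.81% of all genes). Without the block, the count of 1 became 4 when non-tumour replicate 1 was left out, and 0 when non-tumour replicate 2 or 3 or tumour replicate 1 was. In MKO 2 were called, Mup3 (−3.25 ± 0.80, adjusted p = 0.00444) and Mup17 (−4.14 ± 1.31, SE; adjusted p = 0.0254), against 7.56% of all genes. Without MKO non-tumour replicate 2 that count was 6, without non-tumour replicate 1 or 3 or tumour replicate 2 it was 1, without tumour replicate 1 it was 0 and without tumour replicate 3 it was 4.

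**Figure D4:**
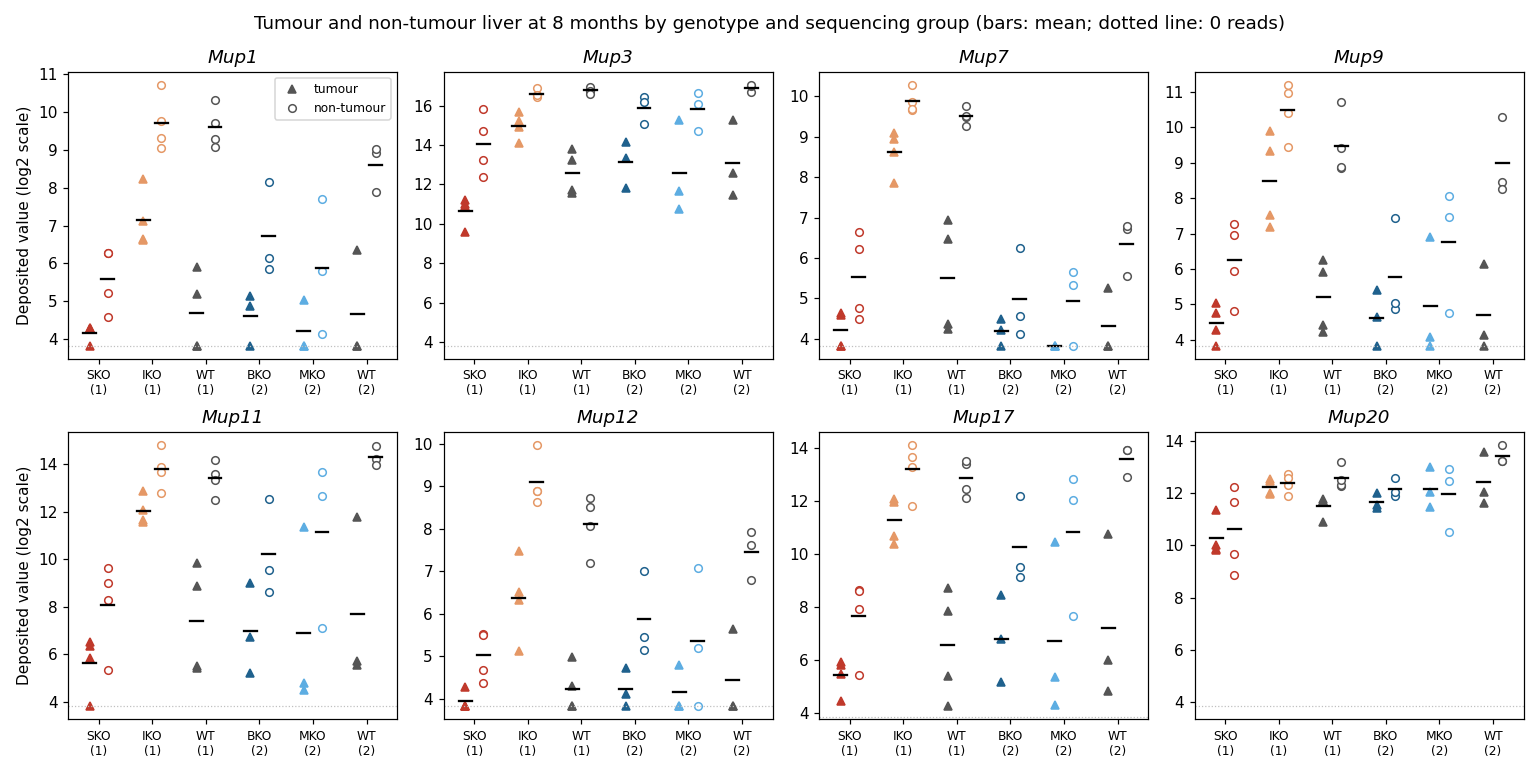
Deposited value (log2 scale) of each gene at 8 months in tumours (triangles) and non-tumour liver (circles) of each genotype, with the sequencing group in brackets; bars are means of 4 libraries in group 1 and 3 in group 2, and the dotted line marks 0 reads. IKO tumours stand above WT tumours of group 1 for all 8 genes, while WT tumours of both groups lie well below WT non-tumour liver for all genes but Mup20.

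IKO tumours held higher Mup levels than WT tumours. Mup17 had 4307, 1589.9, 3919 and 1299.7 normalised reads in IKO tumours, against 201, 18.0, 1.24 and 393 in WT tumours. Mup3 had 51329.6, 17634, 30911 and 38612 in IKO tumours, against 9584, 3404, 2987 and 14188 in WT tumours. Mup11 had 7428, 3203, 4264 and 2976 in IKO tumours, against 437, 19.0, 21.1 and 899 in WT tumours. Every IKO tumour was above every WT tumour for all 8 genes, and 7.27% of all genes were without overlap in either direction. Of the 8 genes, 7 were called higher, against 2.48% of all genes, with differences of 4.72 ± 0.90 for Mup17 (adjusted p = 0.000726), 4.63 ± 1.01 for Mup11 (adjusted p = 0.00344), 3.29 ± 0.65 for Mup9 (adjusted p = 0.00115) and 2.40 ± 0.51 for Mup3 (SE; adjusted p = 0.00256). Mup7 (3.12), Mup1 (2.46) and Mup12 (2.12) were called as well, and Mup20, at 0.72 ± 0.50 (SE), was not (adjusted p = 0.502). The median difference was 2.79. With limma-voom on the recovered reads 3 genes were called (Mup3, Mup11 and Mup17; 3.1% of all genes). With only the IKO and WT tumours in the fit 0 were called, at a lowest adjusted p of 0.0727 (0.27% of all genes), and 5 with the replicate number as a block as well (0.532%).

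The fall in tumours relative to non-tumour liver was smaller in IKO than in WT by 4.37 ± 1.27 for Mup17 and 2.55 ± 0.72 for Mup3 (SE), but the difference between the genotypes was not called for any gene (adjusted p = 0.166 and 0.132; background 0.123%). At an unadjusted p under 0.05, 6 of the 8 genes and 8.34% of all genes passed, and without WT tumour replicate 4 the count called was 2. Cholangiocyte markers summed to 378 to 3494 normalised reads in IKO tumours, against 740 to 3835 in WT tumours. Hepatocyte markers summed to 1197350 to 1528680 in IKO tumours, against 1438570 to 1891880 in WT tumours, and the ranges overlapped. The part of these markers in the result was not tested.

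SKO tumours were lower than WT tumours for Mup3. Mup3 had 1871, 742, 2361 and 2025 normalised reads in SKO tumours, against 9584, 3404, 2987 and 14188 in WT tumours. It was the 1 gene called lower (−1.91 ± 0.51, SE; adjusted p = 0.0352; background 1.04%) and the 1 gene without overlap (5.71% of all genes). With only the SKO and WT tumours in the fit 0 of the 8 genes were called (adjusted p = 0.261 for Mup3; 0.255% of all genes), as without WT tumour replicate 1 or 4 or SKO tumour replicate 1 or 2. Mup12 was near 0 reads in both: it had 0, 0, 1.32 and 0 in SKO tumours, against 1.53, 0, 0 and 9.65 in WT tumours, so a further lowering was not detectable at this depth. The tumour effect differed between SKO and WT by 3.50 ± 0.77 for Mup1 and 2.80 ± 0.65 for Mup12 (SE; adjusted p = 0.0538 for both), with 0 genes called (background 0.0308%) and 6 passing at an unadjusted p under 0.05 (11.1% of all genes). The count called was 2 without WT non-tumour replicate 4, WT tumour replicate 1 or 4 or SKO non-tumour replicate 4, and 1 without SKO non-tumour replicate 3.

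In sequencing group 2 none of the 8 genes was called between knockout and WT tumours. In BKO tumours 0 were called (background 0.548%; 0 at an unadjusted p under 0.05, against 11% of all genes), and Mup3 had 3622, 10411 and 18482 normalised reads, against 6066, 39498 and 2782 in WT tumours. In MKO tumours 0 were called (background 4.03%; 0 at an unadjusted p under 0.05, against 17.1%), and Mup3 had 1709, 3257 and 39924, against the same WT tumours. For Mup3, MKO replicate 3 and WT replicate 2 stood well above the others of their groups, and the groups overlapped for all 8 genes, while 12.1% of all genes in BKO and 15.6% in MKO were without overlap. The tumour effect differed from WT for 0 genes in BKO (background 0.0308%; 1 at an unadjusted p under 0.05, against 7.09% of all genes) and 0 in MKO (background 0.131%; 3 at an unadjusted p under 0.05, against 10.4%).

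Other liver genes in WT tumours of sequencing group 1 split by kind. Of 23 male-biased genes outside the family 16 were lower and 1 higher (median −2.17), with Hsd3b5 at −4.83 ± 0.82 (adjusted p = 2.87e-06). The numbers lower in tumours were 11 in IKO, 15 in SKO, 12 in BKO, 15 in MKO and 18 in WT of sequencing group 2, of 23 in each. The share of all genes called lower was 15.1% in IKO, 18.7% in SKO and 19.2% in WT of sequencing group 1. It was 6.32% in BKO, 7.56% in MKO and 12% in WT of sequencing group 2. Of 26 abundant secreted proteins, more were called higher than lower in tumours. Those higher numbered 14 in IKO, 16 in SKO, 15 in WT of sequencing group 1, 6 in BKO, 10 in MKO and 9 in WT of sequencing group 2. Those lower numbered 3 in IKO, 4 in SKO, 5 in WT of sequencing group 1, 1 in BKO, 3 in MKO and 2 in WT of sequencing group 2. Of all 12966 genes, those called in either direction numbered 4319 in IKO, 5148 in SKO and 5460 in WT of sequencing group 1. They numbered 1907 in BKO, 2245 in MKO and 3510 in WT of sequencing group 2. Of 13 measured genes of growth hormone signalling, 3 were lower and 3 higher in WT tumours of sequencing group 1 (median −0.13). Ghr, 1 of these 13, differed by −1.91 ± 0.18 (SE, adjusted p = 9.7e-13 in limma). All 13 other Mup rows were lower in WT tumours of sequencing group 1, and 11 of 13 in those of sequencing group 2. Hepatocyte markers summed to 1438570 to 1891880 normalised reads in WT tumours of sequencing group 1, against 258253 to 686957 in non-tumour liver, with 3 of 5 higher and 1 lower. Cholangiocyte markers summed to 740 to 3835 in these tumours, against 139 to 463 in non-tumour liver, with 2 of 5 higher. Stellate cell markers were higher for 3 of 5 and lower for 2. What part these markers had in the result was not tested.

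Within groups the members' levels were correlated, Mup20 with the rest less closely in sequencing group 1. After each group's mean was subtracted, Pearson's r between the 21 pairs without Mup20 was 0.656 to 0.917 (median 0.780) over the 60 libraries of sequencing group 1 and 0.490 to 0.950 (median 0.802) over the 45 of sequencing group 2. The 7 pairs with Mup20 gave 0.494 to 0.606 (median 0.555) and 0.548 to 0.741 (median 0.588). These are descriptions across libraries that share their size factors. Any reads shared between near-identical copies could raise them, which was not tested.

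**Figure D5:**
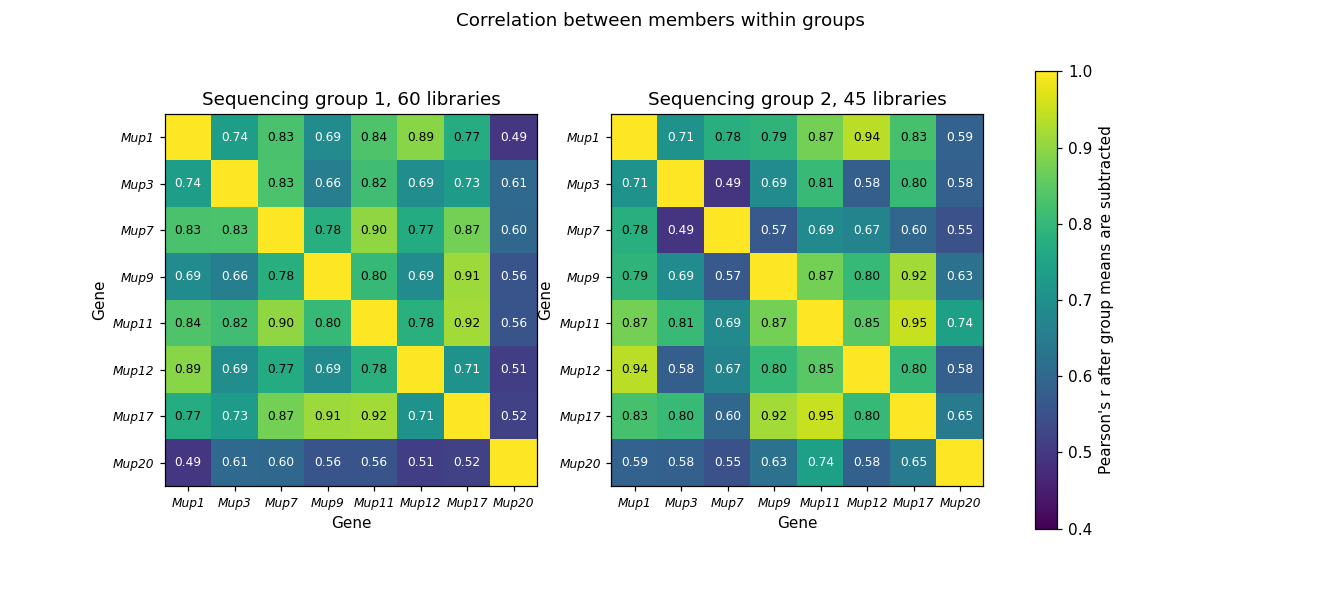
Pearson's r between each pair of genes after subtraction of group means, over 60 libraries of sequencing group 1 (left) and 45 of sequencing group 2 (right). The Mup20 row and column are darkest in sequencing group 1, with r of 0.49 to 0.61, and the pairs of Mup11 and Mup17 reach 0.92 and 0.95.

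The genes outside the list most like the mean of the 8, by mean r over both sequencing groups (60 and 45 libraries), were Mup21 (0.892), Mup4 (0.882), Hsd3b5 (0.880), Cyp7b1, an oxysterol hydroxylase (0.875), Mup19 (0.843) and Cyp2d9, a male-biased steroid hydroxylase (0.842). In SKO as a mean of the 4 stages, Hsd3b5 differed by −2.93, Mup21 by −1.55, Mup4 by −1.22, Cyp2d9 by −0.83 and Mup19 by −0.60, all called. Cyp7b1 was at −0.17 in SKO (adjusted p = 0.557), although it was among the most alike within groups. In WT tumours of sequencing group 1 all 6 were lower, with Hsd3b5 at −4.83, Cyp7b1 at −3.96 and Mup19 at −1.69 among them.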

How the data were processed

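RNA of mouse liver was read by a method that the labels' protocols name MAPS, sequenced on HiSeq2000. Per the submitters' processing notes, STAR 2.7.10a, HTSeq 2.0.2 and DESeq2 1.32.0 were used, with GRCm38 (mm10). The authors deposited 1 matrix of 12966 genes by 105 libraries on a variance-stabilised log2 scale, with a floor of 3.83 at 0 reads; inverting it gave whole reads for 100% of values within 0.05. Library depth was 4676444 to 20231121 reads (median 8353515), and no 2 libraries agreed within sampling noise (lowest chi-square per gene 5.57).

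Deposited log2 values were fitted with limma 3.58.1 (R 4.3.3) per sequencing group, over all 15 groups, with a trend and Benjamini-Hochberg adjustment over all genes; the script was tested on simulated data. Gene lists covered growth hormone signalling, male-biased and female-biased liver genes, regulators of sex-biased genes, secreted hepatocyte proteins, lipocalins and sex-chromosome genes. The first 3 genes of each list by p in SKO are named. The members and lists were chosen with earlier results of these data known. Same-numbered libraries deviated together (every correlation over 0.1) for MKO and WT at 8 months and for BKO tumours and non-tumour liver. Alternatives were quantile normalization, library weights, limma-voom on the recovered reads, other filters, replicate blocks and libraries or stages left out.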

Additional observations from a re-analysis of the deposited data

Results flagged for a closer look

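Among 120 sets of 4 libraries tested, 5 had a library whose gap to its nearest neighbour, divided by the range of the group, was above Dixon's critical value; chance gives about 1 in 20. Mup1 in IKO at 1 month had 237 normalised reads in replicate 2 (gap over range 0.878). Mup1 in SKO tumours was at 0 reads in replicate 1 (0.915). Mup12 in SKO tumours had 1.32 in replicate 3 and 0 in the other libraries (gap over range 1). Mup20 in SKO tumours had 2618 in replicate 3 (0.881), and Mup20 in WT tumours of sequencing group 1 had 1904 in replicate 1 (0.887).

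The effect of a knockout differed between stages by limma's interaction test for Mup20 in SKO (adjusted p = 0.0444) and for Mup9 in MKO (adjusted p = 0.0257). Mup20 in SKO was above WT at 5 months and below it at 8 months, and Mup9 in MKO was above WT at 3 and 5 months and below it at 8 months.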

How the results depend on the processing

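The counts of called genes were recomputed under 644 alternatives that leave out 1 library and 468 others, and 107 and 69 of them moved by more than 1.5 times; the cause was not tested. No result reversed. Quantile normalization gave 0 genes for SKO by stage, 2 for the tumour effect in SKO and 2 for BKO tumours against non-tumour liver, and the stricter filter 2 for the last. Without a trend SKO by stage gave 0. A replicate block over all groups gave 1 for the tumour effect in SKO.

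Library weights gave 1 for the IKO mean, 2 for the tumour effect in IKO, 4 for SKO at 1 month, 0 for SKO tumours, 4 for SKO by stage, 2 for the tumour effect in SKO and 1 for SKO at 8 months against 1 month. In MKO they gave 1 for the mean, 1 at 1 month, 1 at 5 months, 0 at 8 months, 4 by stage, 4 for tumours against non-tumour liver and 2 between the ages, and in WT of sequencing group 2 they gave 3 over the stages and 4 between the ages. Limma-voom gave 3 for IKO tumours, 1, 2 and 2 for SKO at 1, 3 and 5 months, 1 for SKO tumours against non-tumour liver, 1 for BKO at 5 months, 0 for MKO by stage and 1 for WT of sequencing group 2 between the ages.

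With only the compared groups, IKO gave 2 at 1 month, 0 in tumours and 7 for tumours against non-tumour liver. SKO gave 4, 2 and 8 at 1, 3 and 5 months, 0 in tumours, 3 by stage and 7 for tumours against non-tumour liver. The 8 in SKO at 5 months included Mup20, which was called higher. BKO gave 2, 5 and 0 at 3, 5 and 8 months, 1 by stage and 0 for tumours against non-tumour liver. MKO gave 5 and 0 at 5 and 8 months, 3 by stage and 0 for tumours, and WT of sequencing group 2 gave 3 over the stages and 1 between the ages. Adding the replicate block to these gave 0 for IKO at 1 month, 5, 0 and 5 for SKO at 1, 3 and 8 months, 0 for SKO tumours, 7 for IKO and SKO tumours against non-tumour liver, 3 for SKO between the ages, 2, 5 and 0 for BKO at 3, 5 and 8 months, 3 and 0 for MKO at 5 and 8 months, 5 for BKO and 0 for MKO tumours against non-tumour liver and 0 for WT of sequencing group 2 between the ages. Stages left out, chosen after seeing the data, gave 1 for the BKO mean without 5 or 8 months and 1 for the MKO mean without 5 months.

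With 1 library left out the counts ranged over 7 to 7 for the SKO mean, 7 to 8 for SKO at 8 months, 7 to 7 for IKO tumours and for WT tumours of sequencing group 1, and 7 to 8 for those of sequencing group 2. They ranged over 0 to 3 for the IKO mean, SKO by stage, MKO by stage and BKO at 5 months, 0 to 1 for IKO at 1 month, SKO over the stages and between the ages, SKO tumours, the MKO mean, MKO at 1 month and WT of sequencing group 2 between the ages, and 0 to 2 for the tumour effects in IKO and SKO, BKO at 8 months and MKO between the ages. The rest ranged over 1 to 2 for SKO at 1 month, 0 to 6 for SKO at 3 months, 2 to 4, 1 to 6, 0 to 4 and 0 to 6 for IKO, SKO, BKO and MKO tumours against non-tumour liver, 3 to 6 for the BKO mean, 3 to 5 for BKO minus MKO, 4 to 7 for MKO over the stages and 0 to 4 for MKO at 8 months. The replicate block was followed in the text for the 2 of 26 pairs of groups in which same-numbered libraries deviated together. Leaving out libraries with discordant sex-linked reads was not run, because all libraries had Y-linked reads. Depth limits what can be said of Mup12 in SKO and WT tumours of sequencing group 1, where most libraries were at or near 0 reads.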
